A study of Mus musculus with 4 samples.

Results

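Frizzled receptors are the cell-surface proteins that bind Wnt ligands. All 10 mouse Frizzled genes, Fzd1 to Fzd10, were taken by gene symbol, and 13 of the array's 55681 probes measure them. They make up 10 of the 24278 genes with a symbol. RNA was taken from freshly sorted marrow progenitors of adult mice, in 4 groups with 1 single-colour Agilent array each. The groups were CLP cells of SFRP5-transgenic mice, CLP cells of WT littermates, LSK cells of SFRP5-transgenic mice and LSK cells of WT littermates. LSK cells carry no lineage markers, much c-kit and Sca-1, and include the blood stem cells. The CLP gate takes lineage-negative cells with low c-kit, low Sca-1 and IL7Rα, and enriches for common lymphoid progenitors. Neither the promoter of the transgene nor the number and exact age of the mice is stated in the sources used.

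A Frizzled protein crosses the membrane several times and holds an outer cysteine-rich domain that grips the lipid tail of a Wnt. Together with the co-receptors LRP5 and LRP6 it passes the signal to Dishevelled, which stabilises beta-catenin, while other branches run through cell polarity proteins and calcium. SFRP5, the transgene product, is a secreted protein with a cysteine-rich domain of the same kind, which captures Wnt ligands outside the cell. The arrays addressed which genes SFRP5 expression regulates.

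No difference has a replicate check, since each group is 1 array. Nothing was tested between groups, and "higher" and "lower" describe these 4 arrays. A level is the log2 intensity of a probe minus the 75th percentile of its array. An error given with a difference is the scanner software's error estimate for the spots, which covers neither cells, mice nor RNA amplification. In these bulk samples fewer expressing cells and less RNA per cell cannot be told apart. Levels are compared between arrays for 1 probe and not between probes.

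A probe counted as detected when the scanner software marked it as well above background. By that mark 4 Frizzled genes were detected in SFRP5 CLP, 5 in WT CLP, 6 in SFRP5 LSK and 5 in WT LSK. Over all genes the detected share was 69.4% in SFRP5 CLP, 68.9% in WT CLP, 68.7% in SFRP5 LSK and 72.1% in WT LSK. Fzd5, Fzd6, Fzd7 and Fzd9 were detected on all 4 arrays, against 62.6% of all genes. Fzd2, Fzd3 and Fzd4 were detected on some arrays, and Fzd1, Fzd8 and Fzd10 on none. The family thus split into a detected set shared by both sorts, a gene detected on both LSK arrays and neither CLP array (Fzd4), and a set at or near the detection limit. Within the detected set, Fzd9 was near that limit on both CLP arrays.

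**Figure D1:**
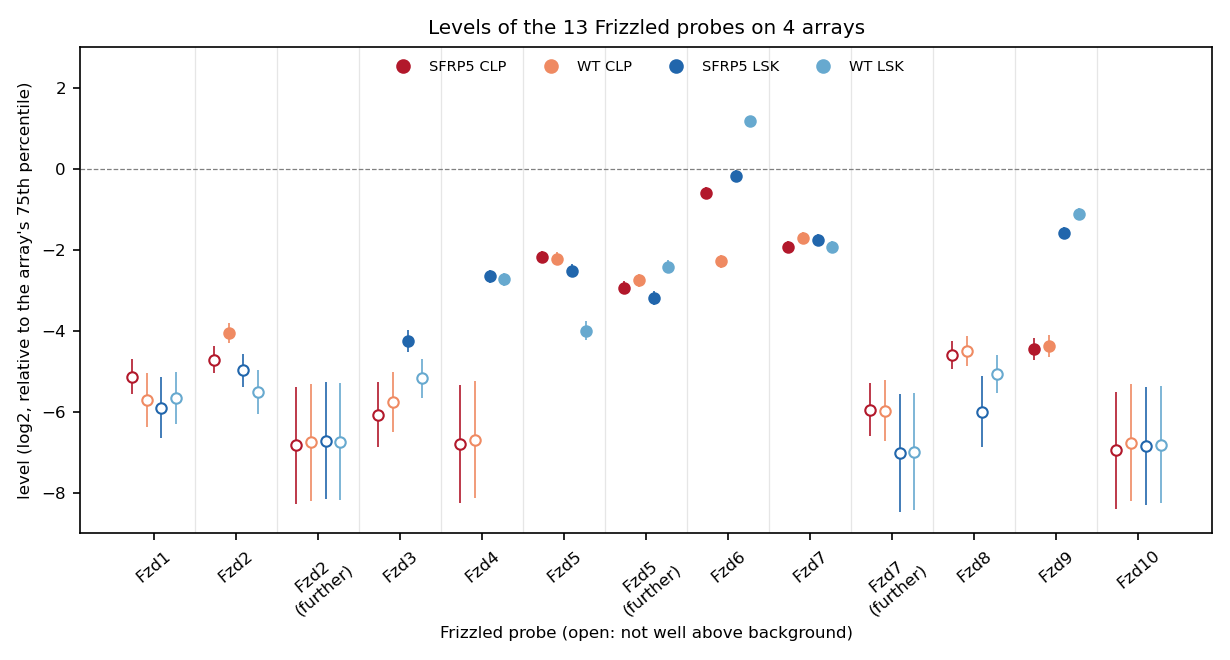
Level of each Frizzled probe (log2, relative to the array's 75th percentile) on the SFRP5 CLP, WT CLP, SFRP5 LSK and WT LSK arrays, with the scanner software's error as bars, filled where well above background and open where not. Fzd9 and Fzd4 sit higher on both LSK arrays, and Fzd6 is lowest in WT CLP (-2.28) and highest in WT LSK (1.17).

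Fzd9 and Fzd4 were higher in LSK than in CLP in both genotypes. Fzd9, a receptor whose loss in mice is known to deplete developing B cells, lies at cytoband 5qG2 and has 1 probe. It stood at -4.45 in SFRP5 CLP and -4.37 in WT CLP, and at -1.60 in SFRP5 LSK and -1.12 in WT LSK. Both CLP values passed the mark near its limit, under the 5th percentile of passing signals (-4.29 in SFRP5 CLP and -4.18 in WT CLP). Both CLP arrays were lower than both LSK arrays, an order whose share over all genes was not taken. At least 2-fold lower in CLP in both genotypes, measured or by a bound, were 6.99% of all genes. The log2 difference of CLP from LSK was -2.85 in SFRP5 (7.23-fold lower, scanner error 0.304) and -3.25 in WT (9.54-fold lower, scanner error 0.310). Of all genes measured on both arrays, 1.02% were as low or lower in SFRP5 and 0.505% in WT. With normexp background correction, which adds an offset to every signal, the log2 differences shrank to -1.23 in SFRP5 and -1.25 in WT.

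Fzd9 varied less between genotypes. SFRP5 LSK was lower than WT LSK by a log2 difference of -0.48 (scanner error 0.208), within the 2-fold limit used here. In CLP the difference of SFRP5 from WT was -0.08 (scanner error 0.381), smaller than the error of the spots.

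Fzd4 is the receptor of Norrin as well as of Wnts and is best known from blood vessels of the retina and ear. Its single probe, of a gene at cytoband 7qE1, read -6.79 in SFRP5 CLP and -6.68 in WT CLP, neither above background, against -2.66 in SFRP5 LSK and -2.73 in WT LSK, both above it. Only 1.47% of all genes were detected on both LSK arrays with no probe detected on either CLP array. Because the CLP values are limits, the fold is a lower bound, taken against the lowest signal that passed the mark on the CLP array. CLP was at least 12.5-fold lower than LSK in SFRP5 and at least 11.6-fold lower in WT. Taken instead against the 5th percentile of passing signals, a choice made after the values were seen, the bounds were 3.09-fold in SFRP5 and 2.73-fold in WT. With normexp they fell under 2-fold, to log2 bounds of -0.68 in SFRP5 and -0.48 in WT. Between genotypes Fzd4 was nearly level in LSK, at a difference of 0.07 for SFRP5 from WT (scanner error 0.240). That sign turned negative under 3 of 7 other settings, as far as -0.07.

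Tspan12 and Ndp, both partners of Fzd4, were unlike it across the arrays. Tspan12, a membrane protein that strengthens Norrin signalling through Fzd4, stayed below the detection mark on every array. Ndp, which encodes Norrin, was above background on all 4, at -2.76 in SFRP5 CLP, -2.50 in WT CLP, -2.83 in SFRP5 LSK and -2.12 in WT LSK.

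Among genes of stem and multipotent progenitors with a value, 7 of 9 were at least 2-fold lower in CLP than in LSK in SFRP5 and 8 of 9 in WT, and 0 were higher in either genotype. Over all genes 13.7% were lower in SFRP5 and 18.6% in WT. The summed level of those above background, in units of the 75th percentile, was 13.6 in SFRP5 CLP against 148.0 in SFRP5 LSK, and 12.2 in WT CLP against 135.2 in WT LSK. Endothelial genes had 6 of 7 lower in CLP in SFRP5, where their summed level was 5.30 against 10.3 in LSK. In WT 4 of 8 were lower and 1 higher, with 7.18 in CLP against 8.92 in LSK. Of the 8 endothelial genes 7 were above background on both LSK arrays, among them Kdr, Pecam1 and Tek. The exception was Cdh5, which was above background in WT CLP alone, at -3.75. A further Kdr probe was above background in SFRP5 LSK alone, at -6.58. Of 12 stromal and bone-forming genes 12 were above background in SFRP5 CLP, 11 in WT CLP, 10 in SFRP5 LSK and 9 in WT LSK. Over all genes the share above background was 69.4% in SFRP5 CLP, 68.9% in WT CLP, 68.7% in SFRP5 LSK and 72.1% in WT LSK. The part of these marker groups in the Fzd4 and Fzd9 differences was not tested.

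Of the 10 genes, 6 had a promoter in the RefSeq tables of build GRCm38.p6, namely Fzd1, Fzd4, Fzd5, Fzd7, Fzd9 and Fzd10. The 250 bases before the start are printed for the LSK-high pair Fzd4 and Fzd9 and for Fzd7. On its brighter probe, Fzd7 was level across the arrays. Fzd4 is at chr7:89404116-89404365 (+ strand), Fzd9 at chr5:135251048-135251297 (- strand) and Fzd7 at chr1:59481897-59482146 (+ strand). Capitals mark matches on either strand. The GC box was searched as GGGCGG, the GATA motif as AGATAA, the RUNX motif as TGNGGT, the ETS motif as CCGGAA, the TCF/LEF motif as CTTTGA, the E-box as CACGTG and the CCAAT box as CCAAT.
Fzd4: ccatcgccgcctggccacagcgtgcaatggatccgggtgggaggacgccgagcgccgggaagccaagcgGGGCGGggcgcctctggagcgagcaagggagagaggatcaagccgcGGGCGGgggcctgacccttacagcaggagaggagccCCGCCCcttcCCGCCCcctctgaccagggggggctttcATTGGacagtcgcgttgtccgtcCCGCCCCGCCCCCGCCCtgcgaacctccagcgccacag
Fzd9: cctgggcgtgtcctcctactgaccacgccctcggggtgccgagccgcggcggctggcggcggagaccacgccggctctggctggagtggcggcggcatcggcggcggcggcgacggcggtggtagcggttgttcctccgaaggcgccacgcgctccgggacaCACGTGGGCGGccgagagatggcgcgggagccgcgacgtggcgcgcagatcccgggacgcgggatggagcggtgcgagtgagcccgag
Fzd7: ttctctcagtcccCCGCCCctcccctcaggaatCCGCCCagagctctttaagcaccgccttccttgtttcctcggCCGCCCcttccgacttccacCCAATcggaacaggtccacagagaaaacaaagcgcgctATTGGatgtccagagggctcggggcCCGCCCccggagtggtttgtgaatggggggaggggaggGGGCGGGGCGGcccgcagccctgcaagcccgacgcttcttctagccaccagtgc

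The printed promoters are rich in G and C, at 72.8% for Fzd4, 76.4% for Fzd9 and 65.2% for Fzd7, against a median of 52.4% over 32851 promoters in the table. Fzd4 held 7 GC boxes, Fzd9 1 and Fzd7 6, some of them overlapping, and 32.7% of all promoters held at least 1. A CCAAT match stood once in Fzd4, not in Fzd9 and at 2 places in Fzd7, against 33.8% of all promoters with a match. The only E-box match among them, in Fzd9, shares a base with its GC box, and 6.02% of all promoters held one. No GATA, RUNX, ETS or TCF/LEF match lay in these 3 windows. All promoters held those motifs in 9.99%, 40.1%, 12.0% and 13.8% of cases, in the same order. The pair that was higher in LSK shared no motif that was absent from Fzd7.

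Fzd6 differed between genotypes in opposite directions in the sorts. Fzd6 is a receptor of the cell polarity branch, known for orienting hair follicles and closing the neural tube. Its 1 probe, of a gene at cytoband 15qB3.1, stood at -0.60 in SFRP5 CLP and -2.28 in WT CLP, and at -0.19 in SFRP5 LSK and 1.17 in WT LSK. The SFRP5 arrays lay between the WT arrays, close to each other. In LSK, SFRP5 was 2.55-fold lower than WT (log2 difference -1.35, scanner error 0.205). In CLP, SFRP5 was 3.22-fold higher than WT (log2 difference 1.69, scanner error 0.214). Replicate spots of other probes at these levels gave a difference a typical SD of 0.104 in LSK and 0.178 in CLP. That spread is below both values but covers neither cells, mice nor RNA amplification.

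The sort difference of Fzd6 changed with genotype accordingly. CLP differed from LSK by -0.41 in SFRP5 (scanner error 0.205) and by -3.45 in WT (10.9-fold lower, scanner error 0.213). Of all measured genes 0.374% were as low or lower in WT CLP, against 24.7% for the SFRP5 value. The genotype difference in CLP minus that in LSK was 3.04, and 0.553% of 15197 genes detected on all 4 arrays had a value as high or higher. At least 2-fold lower in SFRP5 LSK and 2-fold higher in SFRP5 CLP were 0.691% of those genes, and 1.36% were 2-fold apart in opposite directions either way round. Both directions held under all 8 other settings, at -1.48 to -1.09 in LSK and 0.96 to 1.78 in CLP. Not all of these could move Fzd6. Averaging probes, requiring detection on all 4 arrays and dropping the filter on dim probes return the reported values for a gene with a single, always detected probe. The value of 0.96, which is under 2-fold, came from normexp. 

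**Figure D2:**
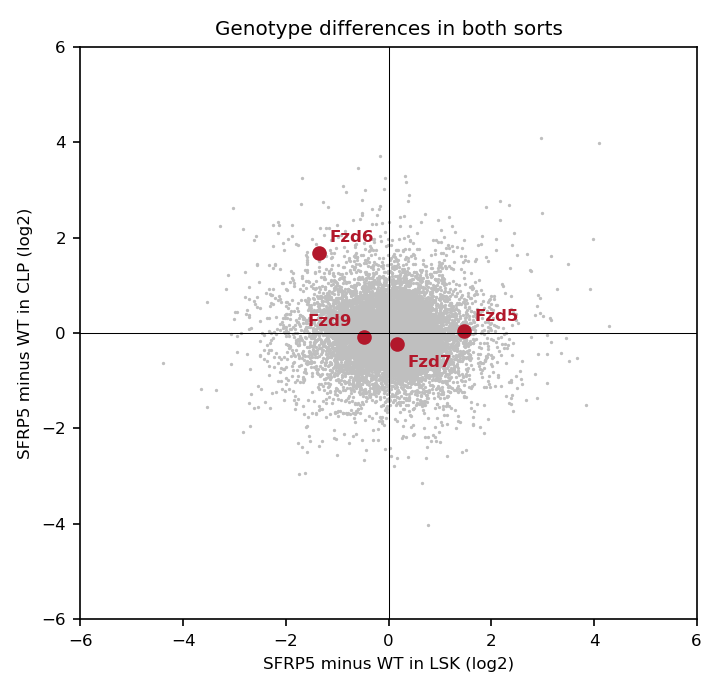
SFRP5 minus WT log2 difference in LSK (horizontal) against the same in CLP (vertical) for the 15197 genes detected on all 4 arrays (grey) and the 4 Frizzled genes among them (red). Fzd6 lies at -1.35 and 1.69, in the quadrant lower in SFRP5 LSK and higher in SFRP5 CLP, while Fzd5 (brighter probe) lies at 1.47 in LSK and 0.04 in CLP.

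Among 8226 other detected genes with a regular name that reached the 75th percentile on at least 1 array, 3 had the pattern most like Fzd6 over the 4 arrays. Likeness was the root mean square difference of the 4 levels after each gene's own mean was taken off. Zfp354c differed by 0.114, Mcoln2 by 0.159 and Dsel by 0.229. All other genes searched were further off. With 4 arrays and this many genes searched, a close match can arise without any link between the genes. The value describes these arrays only.

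Fzd5 and Fzd7 were detected on all 4 arrays, and each has 2 probes. Fzd5, a receptor needed for the yolk sac vessels and eye of the mouse embryo, lies at cytoband 1qC2. The probe with the higher mean stood at -2.18 in SFRP5 CLP and -2.22 in WT CLP, and at -2.52 in SFRP5 LSK and -3.99 in WT LSK. On this probe the WT LSK array was the low one and the other arrays were alike. SFRP5 LSK was therefore 2.77-fold higher than WT LSK (log2 difference 1.47, scanner error 0.290) and WT CLP was 3.42-fold higher than WT LSK (log2 difference 1.77, scanner error 0.287).

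The further Fzd5 probe did not show that pattern. It stood at -2.94 in SFRP5 CLP and -2.75 in WT CLP, and at -3.20 in SFRP5 LSK and -2.42 in WT LSK, with WT LSK the highest. SFRP5 LSK was lower than WT LSK by -0.78 (scanner error 0.237), and WT CLP lower than WT LSK by -0.33 (scanner error 0.227). Both probes are annotated to the same Fzd5 transcript, so the direction of Fzd5 in WT LSK depends on the probe. With the mean of both probes the difference was 0.35 for SFRP5 over WT in LSK and 0.72 for CLP over LSK in WT, both within 2-fold. In CLP the 2 probes gave genotype differences of 0.04 and -0.19, both smaller than their scanner errors of 0.219 and 0.233. Between the sorts in SFRP5 they gave 0.34 and 0.26.

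Fzd7, a receptor known from stem cells of the gut, varied least of the members detected on all 4 arrays, on its brighter probe. It stood at -1.94 in SFRP5 CLP and -1.72 in WT CLP, and at -1.77 in SFRP5 LSK and -1.93 in WT LSK. Its 4 differences lay between -0.22 and 0.21, about the size of their scanner error of 0.212, and the sort differences changed sign under some other settings. The further Fzd7 probe was not above background on any array, at -5.94 in SFRP5 CLP, -5.97 in WT CLP, -7.01 in SFRP5 LSK and -6.98 in WT LSK.

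Fzd2 and Fzd3 were each detected on 1 array, close to the limit. Fzd2, a receptor that acts with Fzd1 in palate and heart development, lies at cytoband 11qE1. Its brighter probe stood at -4.71 in SFRP5 CLP and -4.05 in WT CLP, and at -4.98 in SFRP5 LSK and -5.51 in WT LSK, with only WT CLP above background. Against the undetected reading in WT LSK, which lay above the lowest passing signal, WT CLP was 2.74-fold higher. That is not a strict lower bound, and against the 5th percentile of passing signals it was 1.09-fold. SFRP5 CLP, taken in the same way, was 1.58-fold lower than WT CLP, or 1.18-fold against the 5th percentile. Neither of these genotype values reaches 2-fold or was counted as a call. The sort value of 2.74-fold in WT was counted as higher in CLP. The further Fzd2 probe read -6.83 to -6.71 and was not above background on any array.

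Fzd3, a receptor of axon guidance and cell polarity, lies at cytoband 14qD1. It stood at -6.07 in SFRP5 CLP and -5.77 in WT CLP, and at -4.25 in SFRP5 LSK and -5.17 in WT LSK, with only SFRP5 LSK above background. Against undetected readings, SFRP5 LSK was 1.88-fold higher than WT LSK, again under 2-fold, and SFRP5 CLP 3.51-fold lower than SFRP5 LSK. Neither is a strict lower bound. Against the 5th percentile of passing signals the sort value became 1.02-fold, and no genotype value was left. Of all genes 5.52% were detected on 1 of the 4 arrays alone.

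Fzd1, Fzd8 and Fzd10 were not above background on any array, so no fold was taken. Fzd1, a receptor at cytoband 5qA1, read -5.90 to -5.13. Fzd8, linked to the quiescence of stem cells at the bone surface in mice and lying at cytoband 18qA1, read -5.99 to -4.51. Fzd10, at cytoband 5qG1.3, read -6.95 to -6.76. The weaker mark of a signal that is positive and significant was passed by 8 Frizzled genes in SFRP5 CLP, 8 in WT CLP, 9 in SFRP5 LSK and 9 in WT LSK. Fzd1 and Fzd8 passed it on all 4 arrays and Fzd10 on none. The share of all genes passing this weaker mark was not taken. These 3 genes were not detectable well above background at this sensitivity, which does not show that they are absent.

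Counted over the family, the comparison of SFRP5 with WT gave few calls. In LSK 6 members had a value, 5 measured and 1 by a bound, of which 1 was at least 2-fold higher (Fzd5) and 1 lower (Fzd6). Over all genes with a value in LSK, 7.89% were at least 2-fold higher and 11.9% lower. In CLP 5 members had a value, with 1 at least 2-fold higher (Fzd6) and 0 lower, against 6.87% higher and 6.81% lower over all genes. The median of the measured members was 0.07 in LSK and -0.02 in CLP, against 0.02 and -0.04 over all measured genes. At these numbers 1 gene sets the family's share.

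The sort comparison gave more calls. In SFRP5, 6 members had a value, of which 0 were at least 2-fold higher in CLP and 3 lower (Fzd3, Fzd4 and Fzd9), against 14.7% higher and 13.7% lower over all genes. In WT, 6 had a value, of which 2 were higher in CLP (Fzd2 and Fzd5) and 3 lower (Fzd4, Fzd6 and Fzd9), against 18.4% higher and 18.6% lower. The median of the measured members was -0.29 in SFRP5 and -1.52 in WT, against 0.02 over all measured genes in each. Fzd4 and Fzd9 were the only members at least 2-fold lower in CLP in both genotypes, and 6.99% of all genes were. Each sort median covers only the 4 members measured on both arrays. The 2 members with a bound and the 4 with no value are not part of it.

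**Figure D3:**
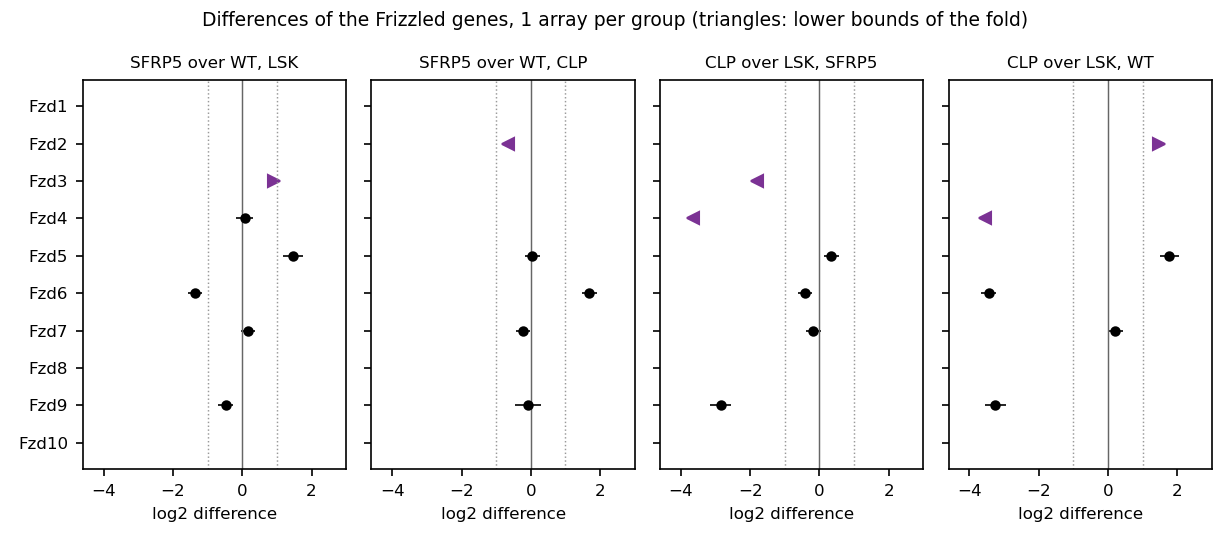
Log2 difference of each Frizzled gene in the 4 comparisons, with dots for genes measured on both arrays (bars: scanner error) and triangles for bounds, dotted lines at 2-fold. For Fzd2 and Fzd3 the triangles are plain differences from undetected readings. CLP sits left of LSK for Fzd4 and Fzd9 in both genotypes, and Fzd6 changes side between the genotype comparisons.

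Sorts and genotypes also differed in other RNA. Kit, the stem cell factor receptor of the sort gate, stood at 3.47 in SFRP5 CLP and 2.75 in WT CLP against 5.18 in SFRP5 LSK and 5.08 in WT LSK, and Il7r at 3.13 in SFRP5 CLP and 2.52 in WT CLP against 0.89 in SFRP5 LSK and -0.51 in WT LSK. Ly6a, which encodes Sca-1, stood at -0.70 in SFRP5 CLP and -0.84 in WT CLP against 1.02 in SFRP5 LSK and 1.35 in WT LSK. Flt3, a receptor kinase expected in lymphoid progenitors, was lower in CLP, at 0.32 in SFRP5 CLP and 0.24 in WT CLP against 3.10 in SFRP5 LSK and 2.95 in WT LSK. Erythroid genes had all 10 members at least 2-fold higher in CLP than in LSK in both genotypes, and lymphoid and B lineage genes 11 of 12. Granulocyte and monocyte genes had 9 of 13 at least 2-fold higher in CLP than in LSK in SFRP5 and 12 of 13 in WT, and mast cell and basophil genes 7 of 10 in SFRP5 and 6 of 10 in WT, against 14.7% of all genes in SFRP5 and 18.4% in WT. Between genotypes 7 of 13 granulocyte and monocyte genes were higher by 2-fold or more and 0 lower in SFRP5 LSK, and 0 higher and 2 lower in SFRP5 CLP. Immediate early genes had 9 of 15 higher and 0 lower in SFRP5 LSK, and 9 higher and 1 lower (Egr2, at -1.07) in SFRP5 CLP. Over all genes 7.89% were higher and 11.9% lower in SFRP5 LSK, and 6.87% higher and 6.81% lower in SFRP5 CLP. Xist, the RNA of the inactive X chromosome, read 4.50 in SFRP5 CLP and -6.76 in WT CLP, and 4.99 in SFRP5 LSK and -6.61 in WT LSK, with neither WT value above background. Ddx3y, Eif2s3y, Kdm5d and Uty, all Y-linked, were measured on every array and lower in SFRP5 in both sorts, with log2 differences between -2.26 and -0.82, and Tsix was above background on the WT arrays alone. Genotype and this sex-linked difference cannot be told apart, and the part of these groups in the Frizzled differences was not tested.

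The counts of Frizzled partners that follow are to be read against the all-gene shares of 7.89% higher and 11.9% lower in SFRP5 LSK, and 6.87% higher and 6.81% lower in SFRP5 CLP. The highest and lowest partners named are those measured on both arrays, and bounds are given apart. Except for Sfrp2 and Fosl1, each partner bound given is the plain difference from an undetected reading, not a strict lower bound. Of 14 co-receptors and accessory receptors, 0 of 9 with a value were at least 2-fold higher and 0 lower in SFRP5 LSK, and 0 of 12 higher and 2 lower (Gpc3 and, by a bound of 2.67-fold, Ryk) in SFRP5 CLP. Lrp5 stood at 1.97 in SFRP5 CLP and 2.22 in WT CLP, and at 2.44 in SFRP5 LSK and 2.10 in WT LSK. Lrp6 stood at 0.94 in SFRP5 CLP and 0.19 in WT CLP, and at 1.13 in SFRP5 LSK and 0.88 in WT LSK. Of those measured in LSK, the highest were Sdc1 at 0.76 and Ptk7 at 0.69 and the lowest Gpc4 at -0.66 and Adgra2 at -0.29. Of those measured in CLP, the highest were Lrp6 at 0.75 and Gpc4 at 0.63 and the lowest Gpc3 at -1.44 and Lrp5 at -0.25. A further Lrp6 probe gave -0.15 there and 1.08 in LSK. A further Gpc4 probe was above background in SFRP5 LSK at -3.43 and not in WT LSK. A further probe of Musk, a receptor kinase of the nerve-muscle synapse, was above background on both SFRP5 arrays, at -3.10 in CLP and -3.32 in LSK, and on neither WT array. Ror1 and Ryk, which are Wnt receptors of the noncanonical branch, were above background in WT CLP alone, and Ror2 on no array.

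Rnf43 and Znrf3 encode the ubiquitin ligases that remove Frizzled from the cell surface. Rnf43 stood at -5.11 in SFRP5 CLP and -0.88 in WT CLP, and at -6.88 in SFRP5 LSK and -5.35 in WT LSK, with WT CLP alone above background. Against its undetected reading, SFRP5 CLP was 18.8-fold lower than WT CLP for Rnf43. Znrf3 was measured on all arrays and lower in SFRP5, by a log2 difference of -0.56 in LSK and -1.12 in CLP. Of the 15 turnover genes, 2 of 6 with a value were at least 2-fold higher and 1 lower in SFRP5 LSK, against 7.89% and 11.9% of all genes. In SFRP5 CLP 1 of 8 was higher and 2 lower, against 6.87% and 6.81%. In LSK, Apcdd1 was 2.09-fold higher in SFRP5 than its undetected reading in WT. Lgr4, a receptor for R-spondins that shields Frizzled from those ligases, was higher in SFRP5 by 1.55 in LSK. Of the other turnover genes measured there, Shisa5 was highest at 0.01 and Tmem67 at -1.95 and Lgr6 at -0.88 lowest. Of those measured in CLP, Shisa4 at 1.09 and Lgr4 at 0.84 were highest and Znrf3 and Lgr5 (-0.36) lowest.

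Detection differed among the secreted Frizzled-related proteins. Sfrp1 and Frzb were above background on no array, Sfrp2 in SFRP5 CLP alone, and Sfrp4 on every array but SFRP5 LSK. The mouse Sfrp5 probe was above background on all 4 arrays, and SFRP5 differed from WT by 0.02 in CLP and -0.08 in LSK. Whether it can read the transgene's RNA is not known from the sources. Of 8 antagonist genes, 0 of 3 with a value were at least 2-fold higher and 1 lower in SFRP5 LSK. The lower gene was Sfrp4, by 2.90-fold against its undetected reading. In SFRP5 CLP 1 of 4 was higher (Sfrp2, at least 3.26-fold) and 0 lower. Notum, an enzyme that strips the lipid from Wnt, was at -0.28 in LSK and 0.06 in CLP, and Sfrp4 at 0.33 in CLP. Smo, the Hedgehog transducer with a related domain, differed by -0.18 in LSK and -0.19 in CLP, Cpz by -0.28 and 0.32, and Corin by -1.18 in LSK.

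Of 20 ligand genes, 0 of 14 with a value were at least 2-fold higher and 2 lower in SFRP5 LSK, and 0 of 13 higher and 1 lower in SFRP5 CLP. Over all genes the lower share was 11.9% in LSK and 6.81% in CLP. Of the ligands measured in LSK, the highest were Wnt2b at 0.78 and Wnt5b at 0.38, and the lowest Wnt8b at -2.57 and Wnt6 at -1.20. Of those measured in CLP, the highest were Wnt10b at 0.69 and Wnt4 at 0.27, and the lowest Wnt5b at -1.40 and Wnt9b at -0.83.

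Among 24 cytoplasmic partners 2 of 22 with a value were at least 2-fold higher and 2 lower in SFRP5 LSK, and 2 of 23 higher and 1 lower in SFRP5 CLP. Over all genes 7.89% were higher and 11.9% lower in LSK, and 6.87% higher and 6.81% lower in CLP. By bounds, Gnao1 was 17.3-fold and Daam2 11.8-fold lower in SFRP5 LSK, each against an undetected reading. In SFRP5 CLP Gnao1 was 2.69-fold higher and Axin2 2.84-fold lower, taken in the same way. A further Gnao1 probe was above background on no array. The Dishevelled genes, whose products bind the Frizzled tail, were measured on all arrays. SFRP5 differed from WT in LSK by 0.14 for Dvl1, -0.43 for Dvl2 and 0.39 for Dvl3, and in CLP by -0.23 for Dvl1, -0.35 for Dvl2 and 0.62 for Dvl3. A further Dvl2 probe gave 0.36 in LSK and -0.38 in CLP. Prickle1, a cell polarity gene, was highest of those measured in both sorts, at 1.94 in LSK and 1.51 in CLP, followed by Vangl1 at 1.28 in LSK (its further probe was not above background there) and Arrb2 at 0.97 in CLP. The lowest measured were Daam1 at -0.57 and Dvl2 in LSK, and Daam2 at -0.97 and Vangl1 at -0.78 in CLP.

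Of 25 canonical target genes, 2 of 15 with a value were at least 2-fold higher and 0 lower in SFRP5 LSK, and 1 of 18 higher and 3 lower in SFRP5 CLP. Over all genes 7.89% were higher and 11.9% lower in LSK, and 6.87% higher and 6.81% lower in CLP. In LSK, Fosl1 was higher in SFRP5 by at least 6.40-fold, and Rnf43 and Axin2, by the bounds above, were lower in SFRP5 CLP. Axin2, a feedback inhibitor that beta-catenin induces, was above background in WT CLP at -3.24 and SFRP5 LSK at -3.73, and not in SFRP5 CLP or WT LSK. On a further Axin2 probe the arrays above background were WT CLP and WT LSK. Of the targets measured in LSK, Jun at 1.04 and Met at 0.74 were highest and Vegfa at -0.69 and Tnfrsf19 at -0.56 lowest. Of those measured in CLP, Jun at 1.13 and Vegfa at 0.86 were highest and Znrf3 and Ccnd1 (-0.99) lowest. Jun, at least 2-fold higher in SFRP5 in both sorts, is also a member of the immediate early genes counted above. The further Vegfa probe had the opposite signs, 0.84 in LSK and -1.13 in CLP.

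**Figure D4:**
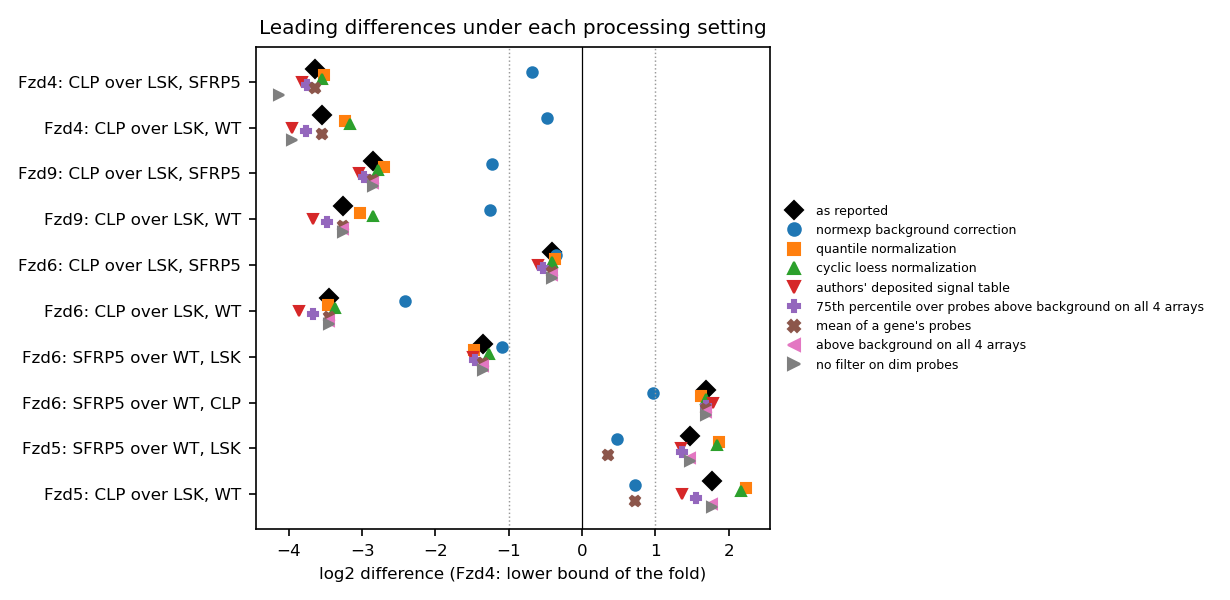
Leading Frizzled differences (log2, horizontal) as reported and under 8 other processing settings (7 for Fzd4), dotted lines at 2-fold, with Fzd4 as a lower bound of the fold. Normexp correction shortens the Fzd4 and Fzd9 sort differences most, and the mean of both probes shortens Fzd5, while no leading difference changes sign.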

How the data were processed

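Cy3-labelled cDNA made from 6.1 ng of total RNA per sample was hybridised to 4 arrays on 1 slide, so each group is 1 array position. Per the file headers, Agilent Feature Extraction 10.10.1.1 subtracted background and spatial trends, and the authors deposited the resulting spot intensity with flags for probes annotated on mm9. Each array in the authors' deposited signal table is that intensity multiplied by a constant. No spot was saturated.

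The processed intensity of 59305 spots was put on the log2 scale and each array's 75th percentile subtracted (290.9 in SFRP5 CLP, 227.2 in WT CLP, 277.5 in SFRP5 LSK and 276.5 in WT LSK). Spots with an outlier flag were left out and spots of a probe averaged. Symbols were updated through the Entrez IDs of 30994 probes (RefSeq, GRCm38.p6, used for names and promoter sequences). The probe with the highest mean stood for a gene. A gene detected on 1 array of a pair, with no probe detected on the other, got a bound of its fold. The bound was taken against the undetected reading or the lowest passing signal of that array, whichever was higher. Where the reading was higher, the value is the plain difference from an undetected spot and not a strict lower bound. Motifs and the 5th percentile for bounds were chosen after the data were seen. Replicate spots of 399 probes gave the spot spread.

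No test was made. An additive fit of genotype and sort was not run: its 1 residual degree of freedom would count any unequal genotype effect as error. The scanner files hold no mean signal, so normexp (limma 3.58.1, R 4.3.3, offset 50) used the median signals. The comparison step was tested on simulated data. The members and lists were chosen with earlier results of these data known. Named genes are all Frizzled genes, fixed partners, and the 2 highest and 2 lowest measured members of each Wnt list in each genotype comparison.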

Additional observations from a re-analysis of the deposited data

Results flagged for a closer look

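For 2 of the 4 Frizzled genes detected on all 4 arrays, SFRP5 differed from WT in opposite directions in the sorts, as did 52.9% of all genes so detected. The difference between the sorts was not tested, since each group is 1 array.

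For Fzd6 the genotype difference in CLP minus that in LSK was 3.04, from 1.69 in CLP and -1.35 in LSK. Genes at least 2-fold in opposite directions in the sorts made up 1.36% of the 15197 genes detected on all 4 arrays. For Fzd7 the same value was -0.39, from -0.22 in CLP and 0.16 in LSK, and 62.9% of those genes had sorts at least as far apart. The Fzd7 values are about the size of the scanner error of 0.212.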

How the results depend on the processing

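No paired analysis was possible because the groups compared share fewer than 2 replicate numbers. The additive fit of genotype and sort was not run, and no replicate could be left out. Of the recomputed single-gene differences, 134 moved by no more than the spread of replicate spots and 43 by more, and no difference of at least 2-fold changed sign. The 134 include values that could not move. These are all values under detection on all 4 arrays, and those of single-probe genes under probe averaging. With no filter on dim probes, only the Fzd4 sort differences could move. The count of members at least 2-fold different was 2 for genotype in LSK, 1 in CLP, 3 for sort in SFRP5 and 5 in WT. With normexp, whose offset shortens dim differences, these became 1, 0, 1 and 2. Averaging the probes of each gene made the first 1 and the last 3. Quantile and cyclic loess normalization made the first 3, with Fzd3 passing 2-fold at 1.44 and 1.29. With no filter on dim probes the sort count in SFRP5 was 4. With bounds against the 5th percentile the sort counts were 2 in SFRP5 and 4 in WT. Requiring detection on all 4 arrays, which leaves out Fzd2, Fzd3 and Fzd4, gave 1 for sort in SFRP5 and 3 in WT. By the positive and significant flag 8 members were detected in SFRP5 CLP, 8 in WT CLP and 9 in WT LSK, against 4, 5 and 5. The share of all genes with that flag was not taken.

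The authors' scaling moved the median of all genes to -0.11 for genotype in LSK, -0.16 for sort in SFRP5 and -0.40 in WT, and a percentile over probes detected on all arrays to -0.09, -0.09 and -0.21. The share of 2-fold genes that was higher in SFRP5 LSK was 39.9%, against 29.9% in the authors' table, 53.8% with cyclic loess, 52.4% with quantile normalization and 61.8% with normexp. For sort it was 51.7% in SFRP5 and 49.7% in WT, against 41.1% and 26.1% in the authors' table, and in WT 65.5% with normexp and 36.5% with the percentile over detected probes. The number of arrays and, for dim probes, the signal over background limit every value.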

Other observations

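Among genes of the Wnt lists, named here after their values were seen, some differed between the sorts in both genotypes. Wnt2b, a Wnt ligand, was lower in CLP than in LSK by -3.95 in SFRP5 and -2.93 in WT, as Fzd4 and Fzd9 were. Daam1, a formin that binds Dishevelled, was higher in CLP by 4.59 in SFRP5 and 3.69 in WT. Lgr5, an R-spondin receptor, was detected on both CLP arrays (-2.34 in SFRP5 and -1.98 in WT) and on neither LSK array, whereas its further probe was detected on none. Lef1, a transcription factor that beta-catenin binds, stood at 0.24 in SFRP5 CLP and -0.53 in WT CLP, against -6.94 in SFRP5 LSK and -6.92 in WT LSK, both not above background. On its further probe the CLP levels were -2.53 in SFRP5 and -3.51 in WT, against -4.03 in SFRP5 LSK and -4.49 in WT LSK.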
